A study of Mus musculus with 20 samples.

Results

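Clone 3 is one of 3 Zcchc8 knockout (KO) clones of SIMS, a mouse salivary gland cell line. Its members are the 4 libraries that the titles place in clone 3, out of 20 libraries in all. They were set against 4 wild-type libraries in the gene table and, in 7 tables of regulatory features, against wild-type replicates 2 to 4, since those tables do not hold replicate 1. The other groups used here were 4 libraries each of Zcchc8 KO clones 1 and 2 and of a Btbd7 KO line, which the design text names as the negative control. All edited lines were made with CRISPR/Cas9, and no group received a further treatment. Clone 3 is a single clone. A change found only in it therefore cannot be told apart between the loss of Zcchc8 and another property of that clone. The labels do not say whether replicates were separate cultures. The p-values therefore rest on the spread between libraries, which the model fits took over all 5 groups together.

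ZCCHC8 forms the core of the NEXT complex together with the RNA-binding protein RBM7 and the helicase MTREX. NEXT hands newly made nuclear RNA to the exosome, the cell's main RNA-degrading machine with 3′ to 5′ activity. Its usual substrates are short-lived: promoter upstream transcripts (PROMPTs), which start close to active promoters and run away from the gene, enhancer RNAs, and the extended precursors of small nuclear and nucleolar RNAs. PAXT is a sister adaptor that feeds longer, polyadenylated nuclear RNA to the same exosome. The comparison of clone 3 with wild type asks which transcripts, regulatory or protein-coding, differ when Zcchc8 has been edited.

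The clone 3 libraries held 13796751, 7795965, 7578027 and 14593557 counts in genes, and the wild-type libraries 13876944 to 17771804. Wild-type replicate 1 stood apart from the rest of its group. Its counts differed from those of the other wild-type libraries by a chi-square of 41.3 to 85.4 per degree of freedom, against 6.85 to 19.8 among the other 3 and 3.23 to 6.73 within clone 3. It had counts in 14245 genes, where the other wild-type libraries had them in 17442 to 18791 and clone 3 in 18168 to 19972. For clone 3, counts of genes, gene classes and list members against wild type are also given without it.

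The targeted gene was still transcribed in clone 3. Zcchc8 stood at 63.5, 60.9, 65.5 and 67.7 CPM (counts scaled to a common library total with TMM factors) in wild type and at 55.7, 60.7, 51.3 and 49.9 CPM in clone 3. All 4 clone 3 values lay below the lowest wild-type value, though replicate 2 (60.7) came close to it (60.9). The difference of -0.25 ± 0.08 (SE) on the log2 scale passed at an adjusted p of 0.0188 in edgeR's quasi-likelihood test, and was -0.18 and not called without TMM scaling. Without clone 3 replicate 3 or 4 the call was lost as well, at -0.23 and -0.21. Clone 2 stood at 23.5 CPM, and clone 3 exceeded it by 1.21 ± 0.08 on the log2 scale (adjusted p 3.74e-11). A transcript level does not show whether protein was made. What the edit did to the DNA is not analysed here. Btbd7, the gene edited in the control line, stood at 190 to 208 CPM in wild type and 192 to 211 CPM in clone 3 (log2 difference 0.02 ± 0.06, adjusted p 0.814).

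Of the 21 tested genes of NEXT, PAXT and the exosome, 3 were higher in clone 3 than in wild type and 6 lower. Among all genes tested, 2214 of 15325 were higher (14.4%) and 2202 lower (14.4%) at an adjusted p under 0.05. Without wild-type replicate 1 these were 2390 and 2562 genes, and 1 and 6 of the 21. Among protein-coding genes alone, with all libraries, 10.6% were higher and 18.5% lower. Off chromosomes 3, 13 and 15, 3 of 17 list genes were higher and 3 lower. There 15.4% of protein-coding genes were lower. Mtrex, the helicase, had 134, 156, 147 and 142 CPM in wild type and 118 to 121 CPM in every clone 3 library. Those groups did not overlap, and Mtrex fell by 0.27 ± 0.05 on the log2 scale (adjusted p 0.000477). Dis3, the catalytic exosome subunit, fell from a mean of 147 to 121 CPM, and Exosc9, Exosc8 and Exosc1 of the exosome ring and cap also fell, by 0.25 to 0.40. Srrt (ARS2), which links the cap-binding complex to NEXT, rose from 179 to 255 CPM (0.51 ± 0.06), as did Exosc5 (0.49) and Pabpn1 (0.45). Rbm7 was at 64.8 CPM in wild type and 56.3 CPM in clone 3 and did not pass (adjusted p 0.0672), although it passed without wild-type replicate 3 or 4 or clone 3 replicate 4. Without TMM scaling 2 of the 21 genes were lower in place of 6. Zcchc8 itself is among those 6. Clones 1 and 2 had 6 and 8 of the 21 lower than wild type, beside 21.4% and 18.4% of protein-coding genes. Clone 3 differed from clone 1 in 0 of the 21, and 2 were higher and 1 lower than in clone 2. Dis3 stood at 121 and 119 CPM in clones 1 and 2, and Mtrex at 109 and 138 CPM.

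Of the 8 tables, the PROMPT table had the largest percentage of higher calls in clone 3. The regions with the largest increases lay upstream of Rfesd, Ubqln2, Sde2, mmu-mir-3084-1 and Tbc1d15. For the 3 of these genes that RefSeq's promoter table (GRCm38.p6) holds, the 250 bases upstream of the start are shown because the PROMPT starts in or near them. The promoter of Crb1, a gene that was read in clone 3 and hardly in any other line, is shown beside them. Capitals mark GTAAGT, a perfect 5′ splice-site word. It was searched together with AATAAA, the core polyadenylation signal, on both strands.
Rfesd, chr13:76018607-76018856, minus strand: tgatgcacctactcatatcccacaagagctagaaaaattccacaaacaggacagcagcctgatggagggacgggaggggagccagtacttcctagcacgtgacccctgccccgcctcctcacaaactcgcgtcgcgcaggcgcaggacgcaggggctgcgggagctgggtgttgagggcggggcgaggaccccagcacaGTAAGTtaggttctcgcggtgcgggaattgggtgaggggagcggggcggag
Sde2, chr1:180850901-180851150, plus strand: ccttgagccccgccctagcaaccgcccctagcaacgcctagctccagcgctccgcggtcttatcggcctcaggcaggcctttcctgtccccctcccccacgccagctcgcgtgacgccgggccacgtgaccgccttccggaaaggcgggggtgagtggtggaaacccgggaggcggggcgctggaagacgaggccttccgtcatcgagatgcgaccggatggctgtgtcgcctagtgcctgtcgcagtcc
Tbc1d15, chr10:115251494-115251743, minus strand: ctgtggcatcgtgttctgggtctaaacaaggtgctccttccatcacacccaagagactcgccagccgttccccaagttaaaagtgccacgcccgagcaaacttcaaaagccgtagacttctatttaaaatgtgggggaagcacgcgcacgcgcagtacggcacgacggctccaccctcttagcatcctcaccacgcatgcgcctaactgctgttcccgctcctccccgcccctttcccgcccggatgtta
Crb1, chr1:139377077-139377326, minus strand: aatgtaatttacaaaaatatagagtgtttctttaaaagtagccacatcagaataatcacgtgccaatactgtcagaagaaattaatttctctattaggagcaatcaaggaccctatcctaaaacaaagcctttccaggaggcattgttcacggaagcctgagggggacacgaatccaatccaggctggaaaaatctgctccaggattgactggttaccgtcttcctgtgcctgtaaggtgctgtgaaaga
The promoters of Rfesd, Sde2 and Tbc1d15 were GC-rich, with 57.6% to 69.2% G or C and 17 to 26 CG dinucleotides. The median over 32851 RefSeq promoters of this length was 52.4% and 6. The Crb1 promoter had 41.6% and 4. GTAAGT occurred once, on the gene strand of Rfesd starting 51 bases before its start, and AATAAA in none of the 4 windows. Over all promoters, 6.31% held GTAAGT and 18.1% AATAAA on either strand. The Rfesd entry was the nearer of 2 in the table and lies 113 bases from the GENCODE start.

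The Rfesd PROMPT region held 0.229, 0.22 and 0 CPM in wild-type replicates 2 to 4 and 9.24, 6.54, 7.94 and 11.8 CPM in clone 3 (log2 difference 5.85 ± 0.44, edgeR adjusted p 1.08e-17). The region of Sde2, which encodes a replication and splicing factor, held 0.343, 0.22 and 0 CPM in wild type and 9.67, 7.42, 7.82 and 9.25 CPM in clone 3 (5.45 ± 0.38). In both regions the lowest clone 3 library lay far above the highest wild-type library. The region of Ubqln2, a proteasome shuttle, rose from 0.349 to 15.5 CPM. That of Tbc1d15, a Rab GTPase-activating protein, rose from 0.202 to 8.33 CPM, and that of mmu-mir-3084-1 from 0.195 to 7.54 CPM. None of the 5 regions differed from clones 1 or 2 at an adjusted p under 0.05, where the means were 7.55 to 18.3 CPM. Ubqln2, Sde2 and Tbc1d15 had no other annotated gene within 5 kb upstream, whereas Rfesd had 1 (Gm4165) and mmu-mir-3084-1 had 3, among them Eif3a.

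In all, 6518 of 17655 tested PROMPT regions were higher in clone 3 than in wild type (36.9%) and 416 lower (2.36%), with a median log2 difference of 0.48. Regions were also read by whether another annotated gene lies within 5 kb upstream, since its reads can fall in the region. Of 4349 regions without one, 2869 were higher (66.0%) and 10 lower, with a median of 2.10. Of 13247 regions with a neighbour there, 27.5% were higher and the median was 0.28. Scaled within the PROMPT table instead of by gene counts, 4702 regions were higher and 2908 lower.

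**Figure D1:**
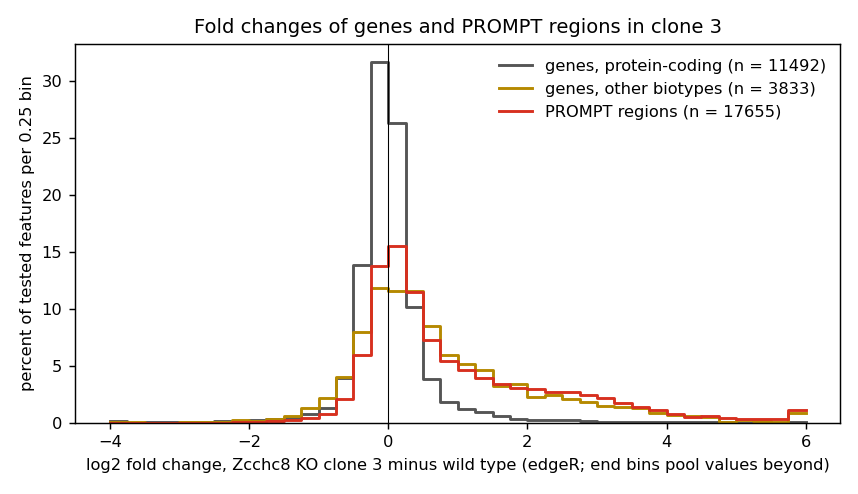
Distribution of the log2 fold change between clone 3 and wild type (x axis) as the percent of tested features per bin (y axis) for 11492 protein-coding genes, all other genes and 17655 PROMPT regions. The protein-coding curve is centred on -0.02, whereas the PROMPT curve and the curve of other genes carry a long tail above 0.

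The PROMPT regions were then set beside their own genes. Among 8299 protein-coding genes tested with their PROMPT region, 4770 regions were higher (57.5%). Of those 4770 genes, 538 were themselves higher (11.3%), 947 lower (19.9%) and 3285 neither. Among all 8299 genes 10.9% were higher and 18.3% lower. Per library, the median log2 ratio of PROMPT to gene counts over 11406 genes was -3.34, -3.36 and -3.39 in wild type and -2.29, -2.35, -2.25 and -2.31 in clone 3. The groups did not overlap. The difference of 1.06 had p = 0.0571 in a two-sided exact permutation test, the smallest that 3 against 4 libraries can give. Clone 3 lay 0.13 below clone 1 (mean -2.17 ± 0.03 SD, n = 4) and 0.06 above clone 2 (-2.36 ± 0.01 SD, n = 4), each with exact permutation p = 0.0286 and adjusted p = 0.0429 over 3 tests. The difference from clone 2 missed the threshold with a pseudocount of 1 (exact permutation p = 0.0571), over genes with a mean of at least 10 counts (exact permutation p = 0.0857) and over protein-coding genes alone (exact permutation p = 0.171).

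In each of the 6 other classes of regulatory features, more features were higher in clone 3 than lower. Clone 3 had more counts than wild type in 583 of 4642 promoters (12.6%) and fewer in 122 (2.63%). Of 14137 promoter flanking regions 1380 were higher (9.76%) and 299 lower (2.12%). Enhancers gave 628 higher of 9527 (6.59%) and 115 lower (1.21%), CTCF sites 625 of 13122 (4.76%) and 119 (0.907%). Transcription factor binding sites gave 130 of 2494 (5.21%) and 17 (0.682%), and open chromatin regions 333 of 8051 (4.14%) and 74 (0.919%). The enhancer with identifier ENSMUSR00000711552 held 0.514, 1.1 and 0.699 CPM in wild type and 21.2, 19.4, 21.0 and 26.8 CPM in clone 3. The promoter ENSMUSR00000326129 rose from 0.229, 0.0734 and 0 CPM to 10.1, 7.67, 11.5 and 12.0 CPM. This promoter was also higher in clone 3 than in clone 1 (4.91 CPM, log2 difference 1.08 ± 0.27, adjusted p 0.00546) and clone 2 (5.98 CPM, 0.80 ± 0.25, adjusted p 0.0436). These identifiers come without coordinates in the tables, and a feature inside a gene shares that gene's reads.

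The share of counts in each class was read per library. PROMPT regions held 192 ± 4.31 counts per 1000 counts in genes in wild type (SD, n = 3) and 233 ± 2.06 in clone 3 (SD, n = 4). Promoters stood at 35.1 and 38.7 and enhancers at 38.9 and 42.2 per 1000. All 7 classes were higher in every clone 3 library than in every wild-type library, and each had p = 0.0571 and adjusted p = 0.0571 in two-sided exact permutation tests. With TMM-scaled totals the 7 classes were still higher, and open chromatin regions had overlapping groups (exact permutation p = 0.114).

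The percentage of higher calls ranged widely over the classes of annotated genes. Of 102 tested lncRNAs that share a bidirectional promoter 72 were higher in clone 3 (70.6%) and 0 lower. Antisense genes gave 239 of 465 (51.4%) and lincRNAs 200 of 455 (44.0%), with 3 and 9 lower. Of small RNA genes, 44 of 123 snoRNA genes (35.8%), 25 of 64 snRNA genes (39.1%) and 13 of 52 miRNA genes were higher. Protein-coding genes had 1219 of 11492 higher (10.6%) and 2127 lower (18.5%). Sense intronic genes lay near that 10.6%, with 20 of 160 higher (12.5%), and processed pseudogenes below it, with 21 of 880 (2.39%). Above it lay the large class annotated as TEC, with 198 of 1021 higher (19.4%), and processed transcripts, with 114 of 258 (44.2%). Without wild-type replicate 1 the higher percentages were 72.6% for lncRNAs at bidirectional promoters, 53.3% for antisense genes and 46.9% for lincRNAs. They were 38.6% for snoRNA genes, 35.3% for snRNA genes and 11.2% for protein-coding genes, with 21.3% of the last lower. The tables do not state whether counting used strand, so an antisense gene's reads cannot be told apart from those of the gene opposite.

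The long non-coding gene AA474408 held 3.24, 4.0, 4.11 and 1.81 CPM in wild type and 60, 55.1, 59.1 and 60 CPM in clone 3 (log2 difference 4.16 ± 0.15, edgeR adjusted p 1.65e-16). 2900060B14Rik rose from 0.76 to 12.9 CPM, 4930402H05Rik from 0.585 to 11.4 CPM and Gm23444 from 0.649 to 12.1 CPM. Snord11, a small nucleolar RNA gene that guides ribosomal RNA modification, rose from 0.817 to 12.8 CPM. For these 5 genes clones 1 and 2 also stood high, at 6.44 to 74.8 CPM, and Btbd7 KO at 0.444 to 4.06 CPM. Scarna13, a small Cajal body RNA gene, fell from 23.7, 22.2, 17.5 and 17.0 CPM to 7.05, 5.91, 4.23 and 7.56 CPM. Gm26397 fell from 58.0 to 16.7 CPM. Peg13, an imprinted non-coding gene, fell from 8.91 to 1.88 CPM.

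The protein-coding genes with the largest increases were led by Crb1, the polarity protein of the apical membrane. Crb1 had 0 counts in all 4 wild-type libraries and 319, 181, 199 and 308 counts in clone 3. Against a floor of 3 counts per wild-type library this is at least 120-fold higher. Pcdh19, a protocadherin of cell adhesion, held 3.5, 5.66, 5.43 and 4.31 CPM in wild type and 94.5, 78.9, 87.5 and 95.6 CPM in clone 3 (4.24 ± 0.13, adjusted p 5.59e-18). It was also raised in Btbd7 KO, at 58.8 CPM, and in clone 1, at 24.4 CPM, but stood at 5.85 CPM in clone 2. Klhl1 showed a like order, with 4.17 CPM in wild type, 16.3 in Btbd7 KO, 8.71 in clone 1, 3.28 in clone 2 and 22.5 in clone 3.

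Msh5, a meiotic mismatch-repair homologue, rose from 2.59, 4.0, 4.33 and 2.56 CPM to 25.3, 19.2, 19 and 22.6 CPM. Mttp, which loads lipid onto lipoproteins, rose from 6.41 to 29.5 CPM, Ssc4d from 1.7 to 11.5 CPM and Gm9958 from 4.44 to 20.8 CPM. For these 4 genes clones 1 and 2 stood at 12.6 to 30.2 CPM, and the Btbd7 line at 2.64 to 4.91 CPM. Xlr rose from 0.525 to 12.1 CPM, Plcb4, a phospholipase C, from 2.08 to 10.4 CPM and Rps6ka6, the kinase RSK4, from 3.59 to 21.2 CPM. In these 3 genes no other line had a mean above 3.59 CPM.

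Dab2, an endocytic adaptor, was the protein-coding gene with the deepest decrease among those named. It held 8.03, 5.6, 7.93 and 9.79 CPM in wild type and 3, 1, 1 and 1 counts (0.0675 to 0.212 CPM) in the 4 clone 3 libraries (fitted log2 difference -5.76 ± 0.34, adjusted p 3.04e-12). Tnc, the matrix protein tenascin-C, held 21.7, 28.1, 26.1 and 30.1 CPM in wild type and 2.12, 2.52, 0.641 and 2.09 CPM in clone 3. Clones 1 and 2 were lower still for Tnc, at 0.666 and 0.0953 CPM. Adgrg2, an adhesion receptor, fell from 6.3 to 0.119 CPM and was at 0.0174 CPM in clone 2. Glul, glutamine synthetase, fell from 7.42 to 1.24 CPM and Hectd2, a ubiquitin ligase, from 16.5 to 3.09 CPM. Tns1, tensin of focal adhesions, fell from 16.1 to 2.14 CPM and Sema5a from 7.3 to 0.786 CPM.

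Protein-coding pathways were described by counts of list members called, to be read against 10.6% higher and 18.5% lower among all protein-coding genes. The lists were chosen with earlier results of these data known. Lower calls differed by chromosome, with 34.6% of protein-coding genes on chromosome 3, 36.8% on 13 and 48.4% on 15. Off those chromosomes 15.4% were lower, and list counts off them are given beside some lists. With wild-type replicate 1 left out these 4 percentages were 38.5%, 40.6%, 58.1% and 17.8%. In bulk RNA, fewer cells of a kind and less RNA per cell cannot be told apart.

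**Figure D2:**
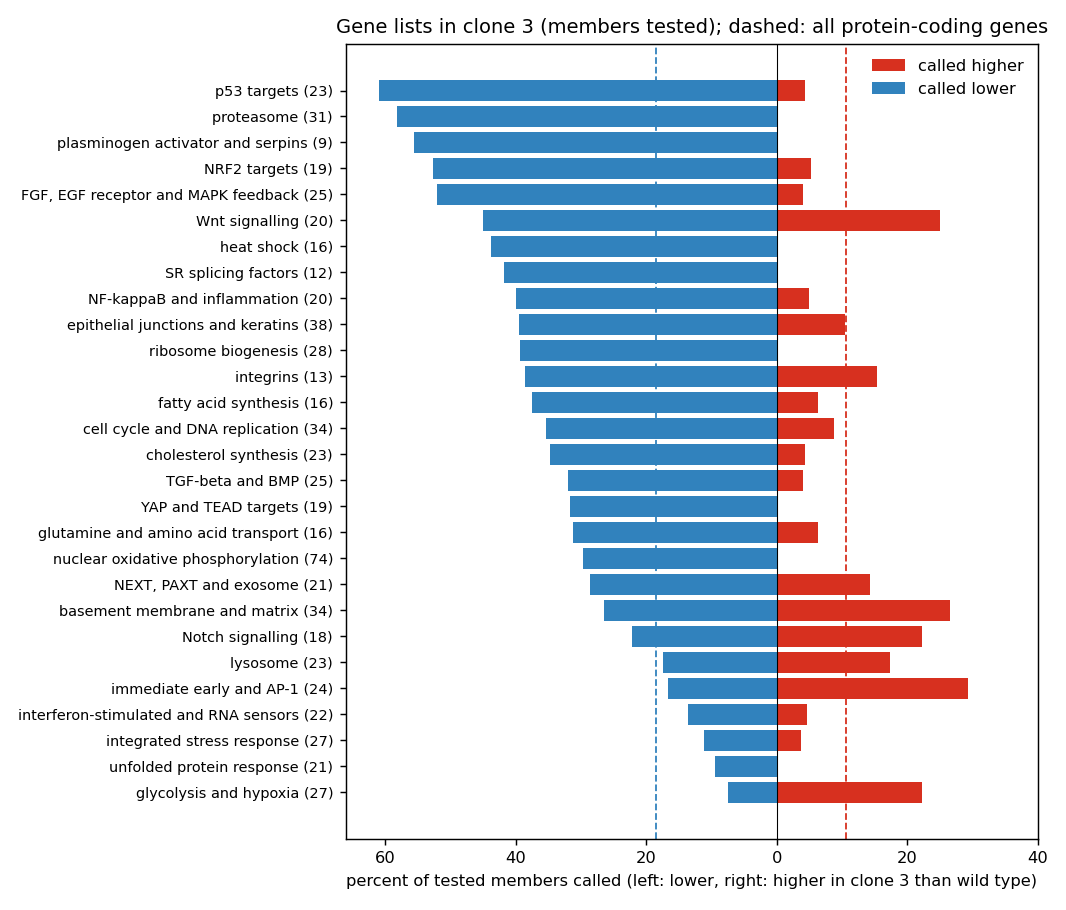
Percent of tested list members called lower (bars to the left) or higher (bars to the right) in clone 3 than in wild type for 28 gene lists, with the number of members tested in parentheses. Dashed lines mark all protein-coding genes, 18.5% lower and 10.6% higher; p53 targets, with 60.9% lower, and the proteasome, with 58.1%, lie furthest to the left.

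Of 23 tested targets of p53, the damage-responsive transcription factor, 14 were lower (60.9%) and 1 higher (Fas), with a median log2 difference of -0.31 against -0.02 for all protein-coding genes. Ccng1, a cyclin of the p53 feedback, held 214, 173, 188 and 189 CPM in wild type and 103, 104, 116 and 118 CPM in clone 3. Cdkn1a, the cell-cycle inhibitor p21, fell from 25.1 to 15.5 CPM (-0.69 ± 0.11), and Mdm2, the ligase that degrades p53, from 80.8 to 69.8 CPM. Off chromosomes 3, 13 and 15 it was 10 of 18. It was 16 of 23 without wild-type replicate 1. Clones 1 and 2 had 9 and 13 of the 23 lower than the same wild-type libraries, where 21.4% and 18.4% of protein-coding genes were.

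The proteasome list had 18 of 31 genes lower (58.1%) and 0 higher, with a median of -0.24. Psmd12, of the regulatory lid, held 74.8, 120, 111 and 114 CPM in wild type and 70.3, 80.0, 74.4 and 72.5 CPM in clone 3. Wild-type replicate 1 was the low value of its group. Without that library 26 of 31 proteasome genes were lower, and without TMM scaling 11. Nuclear genes of oxidative phosphorylation had 22 of 74 lower (29.7%) and 0 higher, among them Cox6c on chromosome 15 (137 to 83.3 CPM) and Sdha on chromosome 13 (191 to 157 CPM). Off chromosomes 3, 13 and 15 it was 14 of 60. Heat shock proteins had 7 of 16 lower and 0 higher, and ribosome biogenesis 11 of 28 lower and 0 higher, which became 5 and 1 without TMM scaling. The lower members without wild-type replicate 1 were 27 for oxidative phosphorylation, 9 for heat shock proteins and 16 for ribosome biogenesis.

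Targets of NRF2, the regulator of the oxidative stress response, had 10 of 19 lower (52.6%) and 1 higher, Osgin1, and 12 lower and 1 higher without wild-type replicate 1. Gsta4, a glutathione transferase for lipid aldehydes, held 166, 85.1, 93.0 and 117 CPM in wild type and 36.8, 27.7, 26.3 and 27.8 CPM in clone 3 (-1.95 ± 0.17, edgeR adjusted p 4.06e-09). It stood at 79.6 CPM in clone 1 and 88.5 CPM in clone 2, so that clone 3 was the lowest line. Hmox1, heme oxygenase, fell from 228 to 140 CPM, and Gclc and Gclm, the subunits that start glutathione synthesis, from 75.1 to 42.8 and from 116 to 77.2 CPM. Clones 1 and 2 were below wild type in these genes too, with Hmox1 at 156 and 160 CPM. Gclc stood at 54.6 and 40.2 CPM there and Gclm at 69.8 and 69.5 CPM, so clone 3 was not the lowest line for either. Against clones 1 and 2, 7 of the 19 were lower in clone 3 in each comparison, where 10.2% and 12.9% of all protein-coding genes were.

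The list of FGF, EGF receptor and MAPK feedback genes had 13 of 25 lower (52.0%) and 1 higher, Spred2, or 11 and 3 without wild-type replicate 1. Egfr, the EGF receptor, held 240, 183, 176 and 182 CPM in wild type and 126, 113, 124 and 126 CPM in clone 3. The ligand genes Nrg1 (30.7 to 14.1 CPM), Btc (21.1 to 11.6), Areg (16.8 to 9.67), Ereg (56.7 to 38.5) and Tgfa (131 to 103) all fell. For Egfr, Nrg1 and Tgfa clone 3 was also below clones 1 and 2 by the test of each difference. The list of TGF-beta and BMP signalling had 8 of 25 lower, including both receptor genes Tgfbr1 (192 to 141 CPM) and Tgfbr2 (344 to 219 CPM), and 1 higher, Id3. Of 20 Wnt genes 9 were lower and 5 higher. The TGF-beta and BMP counts without wild-type replicate 1 were 8 lower and 2 higher, and the Wnt counts 9 and 6. Ctnnb1, which encodes beta-catenin, held 1092, 1196, 1227 and 1164 CPM in wild type and 894, 843, 831 and 862 CPM in clone 3, and clone 3 was below every other line (0.40 to 0.45 below wild type and clones 1 and 2).

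Epithelial junction and keratin genes had 15 of 38 lower (39.5%) and 4 higher. Krt7, Krt8, Krt18 and Krt80, filament proteins whose genes all lie on chromosome 15, fell by 0.49 to 0.68 on the log2 scale. In clones 1 and 2 the log2 differences from wild type were -0.60 and -0.48 for Krt7. They were -0.46 and -0.07 (the latter not called) for Krt8 and -0.38 and -0.44 for Krt18. Krt19 and Krt14, which lie on chromosome 11, fell in clone 3 as well (-0.56 and -0.63). Krt7 stood at 647 CPM in wild-type replicate 1, below all clone 3 libraries (685 to 827 CPM). Off chromosomes 3, 13 and 15, 9 of 30 members of the list were lower. Cdh1 (E-cadherin) rose from 394 to 453 CPM and Cldn7 from 66.0 to 83.3 CPM, whereas Tjp1 (ZO-1) fell from 767 to 553 CPM. Cholesterol synthesis had 8 of 23 lower and 1 higher, with Sqle at 179 CPM in wild type and 126 CPM in clone 3, and 4 of 16 lower off those chromosomes. Fatty acid synthesis had 6 of 16 lower and 1 higher, Fads1. Cell cycle genes had 12 of 34 lower and 3 higher, with Ccnb1 falling from 206 to 145 CPM and Mcm7 rising from 180 to 228 CPM. Without TMM scaling the cell cycle counts were 5 lower and 7 higher. The lower and higher counts without wild-type replicate 1 were 16 and 5 for junctions and keratins, 9 and 1 for cholesterol, 7 and 2 for fatty acids and 12 and 2 for the cell cycle.

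Of 24 tested immediate early genes, 7 were higher (29.2%) and 4 lower, with a median of 0.15. Egr1, a first responder to growth signals, held 3.24, 6.63, 5.28 and 10.4 CPM in wild type and 27.0, 20, 22.8 and 31.5 CPM in clone 3 (1.98 ± 0.22, adjusted p 2.17e-07). Junb rose from 304 to 485 CPM and Jun from 25.7 to 42.3 CPM, whereas Klf6 and Myc fell. Clones 1 and 2 both stood at 22.2 CPM for Egr1. Glycolysis and hypoxia genes had 6 of 27 higher (22.2%) and 2 lower, with Pfkl at 155 and 195 CPM. Leaving out wild-type replicate 1 gave 9 immediate early genes higher and 5 lower, and 4 and 4 of glycolysis and hypoxia. In the latter list clones 1 and 2 had 15 and 14 higher than wild type, where 14.9% and 14.2% of protein-coding genes were. Clone 3 was below each of them in 9 genes and above them in 1 and 0.

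Direct tests between the clones asked what sets clone 3 apart. In genes, 913 were higher in clone 3 than in clone 1 (5.96%) and 1263 lower (8.24%), and 1165 were higher than in clone 2 (7.6%) and 1535 lower (10.0%). In PROMPT regions 186 were higher than in clone 1 (1.05%) and 604 lower (3.42%), and 390 (2.21%) and 385 (2.18%) differed from clone 2. Without clone 3 replicate 1 the 604 became 401, and without replicate 4 it became 402. Both comparisons use the same clone 3 libraries. Set against the same wild-type libraries, clone 1 had 2788 genes higher (18.2%) and 2575 lower (16.8%), and clone 2 had 2645 (17.3%) and 2197 (14.3%).

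Genes of the integrated stress response differed between clone 3 and both other Zcchc8 clones. This programme, run by the factor ATF4, turns on amino acid synthesis, amino acid import and tRNA charging. Clone 3 had 16 of 27 list genes higher than clone 2 and 2 lower, and 10 higher than clone 1 and 2 lower. Among protein-coding genes 9.53% and 7.52% were higher in these comparisons, which share the clone 3 libraries. Against wild type, clones 1 and 2 had 15 and 17 of the 27 lower, beside 21.4% and 18.4% of protein-coding genes, and clone 3 had 3 lower and 1 higher. Without wild-type replicate 1, clone 3 had 13 lower than wild type. Clones 1 and 2 were not compared with wild type without that library, so a like count for them is lacking.

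Asns, asparagine synthetase, held 137, 163, 135 and 116 CPM in clone 3, above all values of clone 1 (73.3 to 111) and clone 2 (66.9 to 83.3). Wild type held 162, 186, 159 and 146 CPM. The differences of 0.58 ± 0.10 from clone 1 and 0.86 ± 0.10 from clone 2 had adjusted p of 0.000237 and 5.99e-07, and that from wild type did not pass (-0.25 ± 0.10, adjusted p 0.0629). Slc7a5, the large neutral amino acid transporter, stood at 196 CPM in clone 3, 99.9 in clone 1, 104 in clone 2 and 195 in wild type. Chac1, which breaks down glutathione, stood at 56.9, 32.1, 31.2 and 66.1 CPM in the same order. Atf4 itself had 249, 312, 253 and 228 CPM in clone 3 and passed only against clone 2 (0.47 ± 0.13, adjusted p 0.0112). Pck2, a mitochondrial enzyme of the same programme, was higher in clone 3 (96.6 CPM) than in wild type, Btbd7 KO and both clones (61.8 to 76.5 CPM). Slc7a11, the cystine importer, was instead lower in clone 3, at 11.4 CPM, than in every other line.

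**Figure D3:**
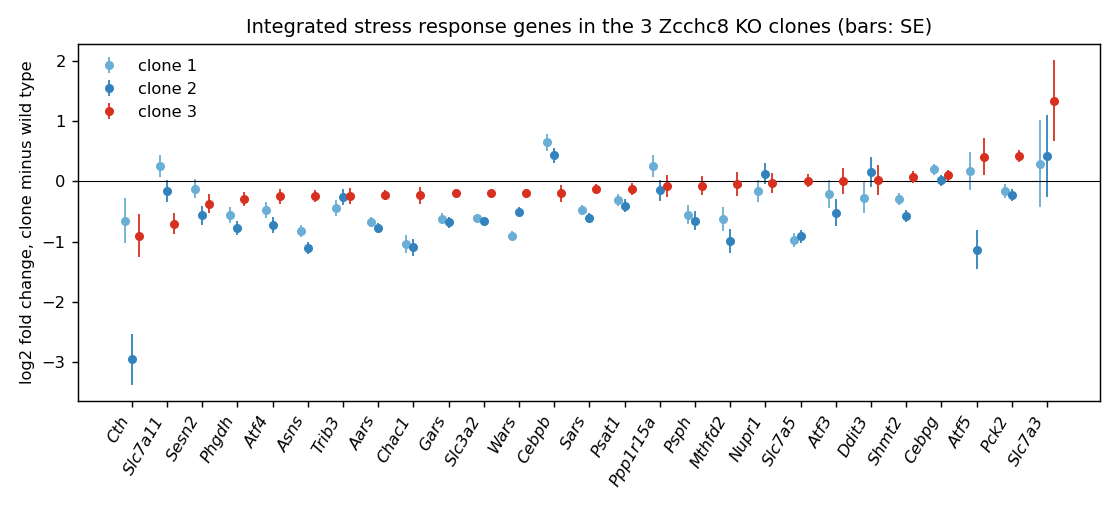
Log2 fold change from wild type (y axis) of the tested integrated stress response genes (x axis) in clones 1, 2 and 3, from the edgeR fit with all 20 libraries; bars are standard errors. Clone 3 (red) lies above clones 1 and 2 for Asns, Slc7a5 and Chac1 and below them for Slc7a11.

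Members of 4 other lists also differed between clone 3 and the other Zcchc8 clones. Of all protein-coding genes, 7.52% were higher and 10.2% lower than in clone 1, and 9.53% and 12.9% than in clone 2. Of 21 genes of the unfolded protein response 9 were higher than in clone 1 and 4 higher than in clone 2, with 0 lower in either. Against wild type 0 of the 21 were higher and 2 lower, the chaperones Hspa5 (349 to 255 CPM) and Hsp90b1 (584 to 489 CPM), and without wild-type replicate 1 it was 5 lower. With all libraries, clones 1 and 2 had 10 and 8 of the 21 lower than wild type, beside 21.4% and 18.4% of protein-coding genes. Of 19 genes in the list of YAP and TEAD targets 11 were higher than in clone 2 and 1 lower, and 7 and 2 against clone 1. That list also holds Yap1, Wwtr1, Tead1 and Tead4 themselves. Against wild type 6 of the 19 were lower and 0 higher, or 7 and 3 without wild-type replicate 1. Ccn1, a matrix-associated growth regulator, held 222, 236, 216 and 252 CPM in clone 3, 107 to 160 in clone 1 and 63.0 to 76.6 in clone 2. Wild type held 226 to 302 CPM of Ccn1, and clone 3 did not differ from it (-0.11 ± 0.10, edgeR adjusted p 0.445). Basement membrane and matrix genes had 17 of 34 higher than in clone 2 and 4 lower, and 14 higher than in clone 1 and 5 lower. Against wild type 9 were higher and 9 lower, or 9 and 11 without wild-type replicate 1. Col4a3 and Col4a4, paired chains of a basement membrane collagen, stood at 105 and 80.4 CPM in clone 3, against 2.6 and 5.65 CPM in clone 2 and 57.5 and 54.7 CPM in wild type. Fn1, fibronectin, held 5045, 5094, 4672 and 5359 CPM in clone 3 and 2774 to 2998 CPM in wild type (0.81 ± 0.06, adjusted p 1.9e-10), with 5413 CPM in Btbd7 KO.

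NF-kappaB and inflammation genes had 9 of 20 lower in clone 3 than in clone 2 (12.9% of protein-coding genes), 8 lower than in clone 1 (10.2%) and 0 higher in either. Against wild type 8 were lower and 1 higher, Csf2 (0.0329 and 0.531 CPM), or 7 and 2 without wild-type replicate 1. Cxcl5, a neutrophil chemokine, held 24.3, 26.5, 24.3 and 21.0 CPM in clone 3, below all values of wild type (39.5 to 51.3), clone 1 (53 to 80.5) and clone 2 (47.8 to 63.1). Nfkbia, the feedback inhibitor of the pathway, stood at 19.2 CPM in clone 3 and 27.0, 36.6 and 34.9 CPM in wild type and clones 1 and 2. Itga2, a collagen-binding integrin chain, fell to 21.7 CPM in clone 3 from 40.4 CPM in wild type, where clone 1 had 68.6 and clone 2 had 82.6 CPM.

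A gene was called particular to clone 3 when it differed in the same direction from wild type, Btbd7 KO, clone 1 and clone 2, each at an adjusted p under 0.05. This held for 75 higher genes (0.489% of those tested) and 233 lower genes (1.52%), of which 73 and 229 were protein-coding. Without wild-type replicate 1 the counts were 122 and 366, and 73 of the 75 and all 233 were among them. With only the deeper clone 3 libraries (replicates 1 and 4) they were 45 and 127, and with only the shallower ones 38 and 135, of which 43, 122, 37 and 120 were shared. Without TMM scaling 103 genes were higher and 177 lower, of which 75 and 177 were shared.

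Crb1 was the particular gene furthest from every other line, with means of 0.2 CPM in Btbd7 KO, 0.0341 in clone 1, 0.104 in clone 2 and 22.9 in clone 3. Its nearest tested neighbours did not rise: Zbtb41 held 95.4 and 89.4 CPM in wild type and clone 3 (adjusted p 0.343), and Dennd1b fell from 82.5 to 59.6 CPM. Rps6ka6 held 2.91, 2.92, 2.94 and 5.59 CPM in wild type, 20.2, 20.8, 24.2 and 19.6 CPM in clone 3 and 0.116 to 0.721 CPM on average in the other edited lines. Trabd2b, a protease that acts on Wnt ligands, held 3.82 to 4.31 CPM in wild type and 12.8 to 16.6 CPM in clone 3. The nuclear receptor Rora rose from 7.52 to 20.9 CPM and the coactivator Ppargc1a (PGC-1alpha) from 6.02 to 15.3 CPM. Plekhh2 rose from 9.62 to 19.8 CPM, B630019K06Rik from 8.89 to 17.2, the LIM protein Fhl1 from 4.6 to 11 and Msrb3, a methionine sulfoxide reductase, from 22.6 to 38.7 CPM.

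Dgcr8, the RNA-binding partner of Drosha in microRNA processing, held 61.6, 80.5, 80.4 and 74.2 CPM in wild type and 142, 143, 136 and 128 CPM in clone 3 (0.89 ± 0.08, adjusted p 7.3e-09). Btbd7 KO stood at 65.6 CPM and clones 1 and 2 at 82.0 and 83.6 CPM. The neighbouring genes Trmt2a (35.5 and 37.9 CPM) and Tango2 (19.2 and 18.8 CPM) did not pass.

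Among lower genes, Dab2 stood at 9.21 CPM in Btbd7 KO, 3.32 in clone 1, 7.38 in clone 2 and 0.133 in clone 3. Its neighbours on chromosome 15 fell less: Rictor went from 248 to 215 CPM and Osmr from 13.2 to 9.35 CPM. Arhgap8, also on chromosome 15, held 6.02, 16.5, 14.2 and 11.9 CPM in wild type and 0.141, 1.13, 0.384 and 1.08 CPM in clone 3. Of its nearest tested neighbours, Prr5 fell from 4.59 to 2.37 CPM (edgeR adjusted p 0.0179) and Phf21b stood at 3.82 CPM in both groups. Slpi, a secreted protease inhibitor, held 7.05 to 10.3 CPM in wild type and 1.01 to 1.63 CPM in clone 3. H2afy2, the histone variant macroH2A2, fell from 6.68 to 0.618 CPM, and the potassium channel gene Kcnq1 from 3.97 to 0.794 CPM with clone 2 at 15.1 CPM. Tnip3, an inhibitor of NF-kappaB, fell from 9.6 to 1.83 CPM, Zfp111 from 15.1 to 4.78, Zfp945 from 5.61 to 1.2 and Dpy19l3, a mannosyltransferase, from 12.9 to 2.6 CPM.

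**Figure D4:**
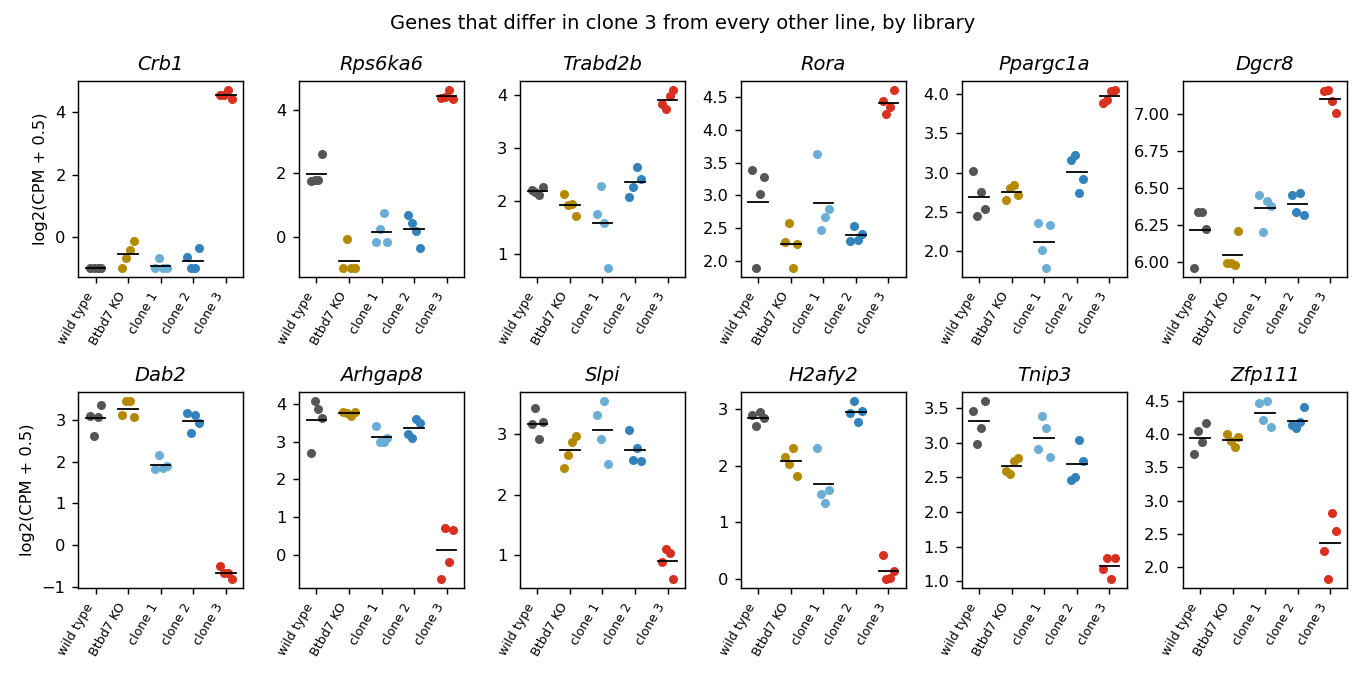
Level of 12 genes particular to clone 3 as log2(CPM + 0.5) (y axis) in each of the 20 libraries, by line (x axis), with a line at each group's mean. The clone 3 points (red) lie above every other library for Crb1, Rps6ka6, Trabd2b, Rora, Ppargc1a and Dgcr8 and below every other library for the 6 genes of the lower row.

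The genes lower in clone 3 were also described by their position. The following regions were chosen after their values were seen, so they are descriptions with no test. On chromosome 15 the median log2 difference of 448 tested protein-coding genes was -0.28 from wild type, -0.21 from Btbd7 KO, -0.22 from clone 1 and -0.28 from clone 2. The first of these was -0.30 without wild-type replicate 1. On all other chromosomes together these medians were -0.02, -0.05, 0.02 and 0.01. A negative difference in all 4 comparisons was found for 58.3% of chromosome 15 genes and 15% of the others. Chromosome 15 held 50 protein-coding genes particular to clone 3 and lower, 11.2% of those tested there against 1.62% elsewhere. The shift ran along the chromosome: 10 of its 11 windows of 10 Mb had medians below 0 in all 4 comparisons. Relative to the wild-type mean and to each library's overall median, chromosome 15 stood at -0.24, -0.25, -0.26 and -0.24 in the clone 3 libraries, at -0.11 to -0.13 in Btbd7 KO and at -0.05 to 0.02 in all other libraries. PROMPT regions of its protein-coding genes had median differences of 0.93 from wild type, 1.30 from Btbd7 KO, -0.41 from clone 1 and -0.26 from clone 2, where the other chromosomes had 1.20, 1.22, -0.14 and 0.04. For PROMPT regions the difference from Btbd7 KO was not the smaller one on chromosome 15.

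**Figure D5:**
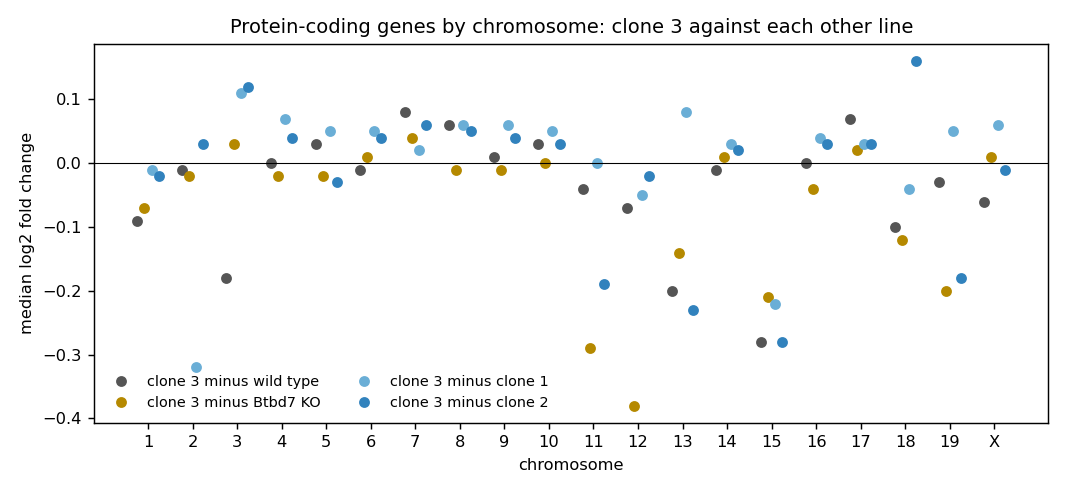
Median log2 fold change of tested protein-coding genes (y axis) by chromosome (x axis) for clone 3 minus wild type, Btbd7 KO, clone 1 and clone 2. Chromosome 15 is the one where all 4 points lie at -0.21 or below; on chromosomes 2 and 12 a single comparison stands out, and on 3 only the comparison with wild type is below 0.

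Smaller stretches shifted as well. On chromosome 11 from 110 Mb to its last gene, 146 genes had medians of -0.17, -0.40, -0.36 and -0.37 against wild type, Btbd7 KO, clone 1 and clone 2, and 33 of them were lower and particular to clone 3. Wild-type replicate 1 stood at -0.15 for that stretch, close to the clone 3 libraries at -0.11 to -0.19, and the other wild-type libraries at -0.02 to 0.10. On chromosome 1 from 180 Mb, 70 genes had medians of 0.20, 0.23, 0.28 and 0.26, and 13 were higher and particular. At the end of the X chromosome, from 160 Mb, 28 genes had medians of -0.51, -0.21, -0.42 and -0.38. Of 223 windows with 15 genes or more, 9 were lower by 0.15 or more in all 4 comparisons and 2 higher. Chromosome 15 held 51 and distal 11 held 33 of the 233 lower particular genes, which leaves 149 outside them, and distal 1 held 13 of the 75 higher ones. Whether the number of copies of these stretches differs between the lines was not tested.

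PROMPT regions particular to clone 3 were few, 23 higher (0.13% of those tested) and 31 lower (0.176%), and most lay at a gene that was itself particular. Of the 31 lower regions 25 had such a gene within 5 kb upstream and 6 had neither that nor a particular gene of their own. The own gene was particular for 1 of the 31. Of the 23 higher regions 12 had such a neighbour, 3 had a particular gene of their own and 8 had neither. The region of Mir7678 held 10.1, 6.31 and 7.46 CPM in wild type and 1.41, 1.63, 2.05 and 1.01 CPM in clone 3, and the gene upstream of it is Slpi. The region of 4932441J04Rik, with Pcdh7 upstream, fell from 6.32 to 1.68 CPM. Those of Gm20556 and Mir1306, named after their values were seen, lie beside Arhgap8 and Dgcr8. The higher regions included that of Pcdh19 itself, with log2 differences of 5.62, 2.38, 4.28 and 3.89 from wild type, Btbd7 KO, clone 1 and clone 2, also named after its values were seen. Without clone 3 replicate 1, 3 or 4 in turn, 10, 15 and 14 regions were higher in place of 23.

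Markers of the line and of other cell types were read in the same libraries. All 10 epithelial markers were detected, with summed levels of 3720 to 5336 CPM in wild type and 3465 to 3947 CPM in clone 3. Of 8 endothelial markers 5 had no count in any wild-type or clone 3 library and the sum was at most 0.405 CPM, with Cdh5 at 0. Of 10 immune markers 5 had none, and the sums were 7.58 to 9.49 CPM in wild type and 6.75 to 10.3 CPM in clone 3. Fibroblast markers summed to 11.3 to 18.2 CPM in wild type and 22.0 to 26.4 CPM in clone 3, mostly Col1a1 (means of 11.3 and 22.8 CPM), with 5 of 10 at 0. Col3a1 of the same list fell from 3.11 to 0.892 CPM (adjusted p 0.00292). Salivary acinar markers summed to 166 to 189 and 114 to 125 CPM, nearly all of it the water channel Aqp5, while the secretory genes Smgc and Muc19 were at 0. Duct markers summed to 889 to 1799 and 872 to 1051 CPM and consisted mostly of Krt7 and Krt19, while Kit, Elf5 and Foxi1 were at 0 in both groups. Myoepithelial markers summed to 256 to 397 and 198 to 229 CPM, mostly Krt14, with Acta2 at 0 in wild type. The part of these shifts in the results was not tested.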

How the data were processed

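Total RNA of SIMS cells was sequenced from TruSeq Stranded Total RNA libraries, per the labels' protocols. FastQC and STAR 2.7.3a are named in the submitters' processing notes. The genome build, the counting program, its use of strand and the extent of a PROMPT region are not given in the sources used here. The deposited tables hold raw counts per gene and per regulatory feature, made by the authors. Symbols and positions come from GENCODE vM21, which matched 55230 of 55471 gene identifiers without their version.

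Libraries were grouped by title. Each table was fitted once over all 5 groups with edgeR 4.0.16 (R 4.3.3): filterByExpr, library sizes and TMM factors from the gene table for every table, the quasi-likelihood test, and Benjamini-Hochberg adjustment with a threshold of 0.05. Standard errors come from the fold change and its F value. CPM use the TMM-scaled totals. Ratios and shares were compared with exact permutation tests (scipy 1.17.1). Ratios used log2 of CPM with a pseudocount of 0.5. DESeq2 1.42.0, other scalings, filters, thresholds and left-out libraries were tried as alternatives. Tested on simulated data with 200 changed features, the gene fit recovered 55% of 2-fold and 80% of 4-fold changes, and 6.25% of its calls were false. In the PROMPT table these were 37%, 79% and 7.2%. Against wild type the real tables gave far more than 200 calls. They were 2214 genes higher and 2202 lower, and 6518 PROMPT regions higher and 416 lower. The rates therefore hold for the simulated setting only, and the share of false calls under shifts of the real size was not tested. No column was left unmapped.

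Outside the lists, named genes were those with the largest and lowest fold changes (10 each for protein-coding genes, 5 and 3 for other genes, 5 and 2 for PROMPT regions, 2 and 1 for each other class) with a mean of at least 50 counts. Also named were the 10 particular genes in each direction with the largest smallest-difference over the 4 comparisons, and Zcchc8, Btbd7, Rbm7 and Mtrex. Of the list members the rule allows, and of some others, examples were picked after their values were seen. Members and lists were chosen with earlier results of these data known.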

Additional observations from a re-analysis of the deposited data

Results flagged for a closer look

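In 6 of 115 groups of 4 libraries one library lay apart from the other 3 by the test for a single outlying value, and chance alone gives about 1 in 20. These were Mtrex in clone 3 replicate 2 (118 CPM), Klhl1 in clone 3 replicate 2 (26.4 CPM), Tns1 in clone 3 replicate 4 (2.63 CPM) and Plekhh2 in clone 3 replicate 4 (16.1 CPM). In wild type they were Rps6ka6 in replicate 4 (5.59 CPM) and Peg13 in replicate 2 (5.2 CPM).

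Clone 3 differed from every other line by the test of each difference in 75 genes that were higher, 233 genes that were lower, 23 PROMPT regions that were higher and 31 that were lower. For the named higher genes the smallest of the 4 log2 differences was 6.93 for Crb1, 2.55 for Rps6ka6, 1.63 for Trabd2b, 1.48 for Rora and 1.04 for Plekhh2. It was 1.01 for Ppargc1a, 0.95 for B630019K06Rik, 0.75 for Fhl1, 0.71 for Dgcr8 and 0.70 for Msrb3. For the named lower genes it was -4.53 for Dab2, -3.61 for Arhgap8, -2.19 for Slpi, -2.13 for H2afy2 and -2.02 for Kcnq1. It was -1.85 for Zfp945, -1.77 for Peg13, -1.66 for Tnip3, -1.61 for Zfp111 and -1.60 for Dpy19l3.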

How the results depend on the processing

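Of 815 alternatives for 70 named features, 802 kept direction and side of the threshold, 7 lost the call, 3 gained it and 3 turned the sign: Btbd7, not called, was -0.01 without wild-type replicate 2 or clone 3 replicate 1 or 2 (0.02 with all libraries, -0.01 to 0.04 over libraries left out). Of 112 alternatives for 56 counts of list members, 87 lay within 1.5 times the count given and 25 did not. Fitted on clone 3 and wild type alone, 1136 genes were higher and 1228 lower, in place of 2214 and 2202. With clone 3 replicates 2 and 3 only, a choice added after seeing the data, they were 1276 and 1418. With a further minimum of 1 on the size of the log2 difference there were 1178 higher and 218 lower genes, and the lower features were 36 CTCF sites, 28 enhancers, 17 open chromatin regions, 60 flanking regions, 24 promoters, 6 binding sites and 56 PROMPT regions. It gave 11 higher and 28 lower particular genes and 9 and 5 particular PROMPT regions. Scaling within each table gave 222, 261, 121, 650, 269, 42 and 2908 lower features in the same order. Without a count filter 48 open chromatin regions and 10 binding sites were lower. With only clone 3 replicates 1 and 4, 45 and 127 genes and 11 and 20 PROMPT regions were particular, and with only replicates 2 and 3, 38 and 135, and 6 and 16, both added later. Leaving out 1 library at a time gave 59 to 122 higher and 175 to 366 lower particular genes, both highest without wild-type replicate 1. It gave 10 to 24 higher particular PROMPT regions and 401 to 447 regions lower than in clone 1. The causes were not tested.

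The PROMPT to gene ratio difference was -0.15 to -0.12 from clone 1 and 0.05 to 0.08 from clone 2 with a clone 3 library left out, where the smallest possible exact permutation p is 0.0571. From clone 2 it was 0.07 with a pseudocount of 1 and 0.06 over genes with at least 10 counts, neither past the threshold. DESeq2 called 2590 genes higher and 2173 lower. Dropping TMM shifted the median of all genes by 0.066 on the log2 scale.

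The replicate numbers of the labels did not pair the samples: the correlations of same-numbered deviations in wild type and clone 3 were -0.0, 0.24, -0.11 and -0.0, and 1 of 4 correlated best with its own number. With the number as a replicate block 2248 genes were higher and 2165 lower, and 6255 and 392 PROMPT regions. Clone 3 replicates 2 and 3 were the shallower libraries of the group, which limits calls among low features.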

Other observations

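Lists not described above gave the following counts for clone 3 against wild type, beside 10.6% higher and 18.5% lower among protein-coding genes. Notch signalling had 4 of 18 genes higher and 4 lower, and lysosome genes 4 of 23 higher and 4 lower. Interferon-stimulated genes and RNA sensors had 1 of 22 higher and 3 lower. SR splicing factors had 5 of 12 lower and 0 higher. Plasminogen activators and serpins, which control extracellular proteolysis, had 5 of 9 lower and 0 higher. Integrins had 5 of 13 lower and 2 higher. Glutamine and amino acid transport had 5 of 16 lower and 1 higher, and 9 higher and 3 lower against clone 2. Without wild-type replicate 1, the higher and lower counts against wild type were 5 and 5 for Notch, 3 and 5 for the lysosome, 0 and 6 for interferon-stimulated genes and RNA sensors, and 0 and 4 for SR splicing factors. They were 0 and 5 for plasminogen activators and serpins, 3 and 6 for integrins, and 1 and 5 for glutamine and amino acid transport.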
